A study of Mus musculus with 8 samples.

Results

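The luciferase control libraries describe mouse bone marrow-derived mesenchymal stem cells that lack the tumour suppressor p53, without the study's oncogene. They are 4 of the 8 RNA libraries of the series, chosen by their label alone, and the other 4, which carry cFos, were not used. Each control library came from 1 single clone (clone 2, 4, 8 or 12) of p53 knockout cells that had received a retrovirus with luciferase (Luc), a light-producing enzyme that serves as a control. All 4 cultures were below passage 20, were kept in a mesenchymal stem cell growth medium, were split every 3 days and had no further treatment. All were cultured knockout cells, so no group with p53, no untransduced group and no fresh marrow is in the comparison. There was 1 library per clone. A difference between clones and a difference between their cultures therefore cannot be told apart, and no test between clones was made.

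Mesenchymal stem cells, also called marrow stromal cells, are adherent cells that can form bone, cartilage and fat. In marrow their relatives surround blood vessels, lay down matrix and supply the chemokine, growth factor and adhesion signals that hold and feed blood stem cells. In culture, clones of such cells can differ in how far they lean towards bone or fat.

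Levels are FPKM as the authors deposited them, read fragments normalised for transcript length and for the number mapped in the library, here summed over the transcripts of a gene. Where 4 values are given they are those of clones 2, 4, 8 and 12, in that order, and a mean stands with its SD over the 4 clones (n = 4). The tables gave values for 23501 genes, of which 11253 had a mean of at least 1 FPKM over the 4 libraries. Such a gene was called variable where its highest and lowest clone lay at least 4-fold apart on the log2(FPKM + 0.5) scale, and stable where the ratio of the highest to the lowest was at most 5 to 4. By these rules 836 genes were variable, 7.43% of the 11253, and 1686 were stable, 15.0%. The rules describe these 4 clones and carry no p-value.

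Between 7.14 and 9.14 gigabases of sequence per library lay on annotated transcripts, most in clone 2 and least in clone 8. Each library held 11011 to 11098 genes at 1 FPKM or more, and 10337 genes (44.0% of 23501) reached that level in all 4. Across the 11253 genes the log2 values of clones 4 and 12 were the most alike (Pearson r = 0.932), and those of clones 8 and 12 the least (r = 0.879), values that describe genes and carry no test. Each of the 3 pairs with clone 8 had a lower r (0.879 to 0.897) than each pair without it (0.913 to 0.932).

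Trp53, which encodes p53, was the gene knocked out, and its transcript was read in every library. It was listed at 7.302, 9.28, 6.17 and 7.92 FPKM (chromosome 11, 69393861 to 69405375, mm9). The 4 values lay within 1.503-fold of each other. Which part of the gene was deleted is not in the labels, so transcript counts over the whole gene do not check the knockout. Cdkn1a, the cell cycle inhibitor p21 and a textbook p53 target, was low at 2.55, 1.06, 0.311 and 3.89 FPKM. Mdm2, the ubiquitin ligase that targets p53 and is itself a p53 target, was at 19.02, 12.8, 11.5 and 15.7 FPKM. Of 25 genes on the list of p53 and its targets 20 reached 1 FPKM in all 4 libraries, against 44.0% of all 23501 genes. Among them were Bax, a promoter of cell death, at 38.8 ± 11.6 FPKM, and Ccng1, cyclin G1, at 27.9 ± 3.63 FPKM. No p53-proficient library is at hand to compare these levels with.

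Cdkn2a, the locus of the tumour suppressors p16Ink4a and p19Arf, was abundant, at 248, 257, 149 and 308 FPKM (chromosome 4, 88920377 to 88940523). The file lists 2 transcripts there, which share their last exons. That with the longer span, which starts at the far first exon of p19Arf, was at 184, 166, 93.3 and 249.99 FPKM, and that with the shorter span, which starts at the first exon of p16Ink4a, at 63.8, 91.4, 55.4 and 58.1 FPKM. The split of reads over shared exons is a model estimate. The neighbour Cdkn2b, p15Ink4b, was at 90.4, 53.2, 34.96 and 93.5 FPKM, lowest like Cdkn2a in clone 8. Of 10 cell cycle inhibitors 1 was variable, Cdkn1a, against 7.43% of all genes, a difference of few genes that was not tested.

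The most abundant messages were those of protein synthesis, cytoskeleton, matrix and 1 chemokine. Eef1a1, the elongation factor that brings transfer RNA to the ribosome, led with 5807 ± 686 FPKM. Cxcl12, a chemokine that keeps haematopoietic stem cells within the marrow, was second, at 2477, 2541, 7270.2 and 1168 FPKM (chromosome 6, 117118553 to 117131386). Clone 8 had the most Cxcl12 and clone 12 the least, 6.23-fold apart, so that it was the most variable of the 10 leading genes. Its 3 listed transcripts were ordered alike in each clone, with means of 2060 ± 1507 FPKM for the 1878-base form, 1220 ± 1132 for the 3173-base form and 83.7 ± 44.2 for the 5670-base form.

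Ribosomal protein genes took 17 of the 30 leading places and 57 of the leading 100. Together the 89 ribosomal protein genes matched by symbol held 19.2 ± 0.954% of the summed FPKM, and 17.9 to 20.0% in each clone. Lgals1, the secreted lectin galectin-1, was at 2657, 3009, 1516 and 2824 FPKM, lowest in clone 8. B2m, the light chain of class I histocompatibility molecules, was at 3484, 2834, 1376 and 1407 FPKM, higher in clones 2 and 4 than in clones 8 and 12. Bgn, the matrix proteoglycan biglycan, was at 1938 ± 324 FPKM and Thbs1, the matrix protein thrombospondin 1, at 1581 ± 249.7 FPKM. The actins Actg1 (1995 ± 501 FPKM) and Actb (1565 ± 269 FPKM), the glycolytic enzyme gene Gapdh (1663 ± 651 FPKM) and the collagen gene Col1a2 (1550.4 ± 724 FPKM) also belonged to the first 30. The 100 leading genes held 30.8 ± 0.959% of the summed FPKM, and the leading 500 held 53.7 ± 1.23%.

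**Figure D1:**
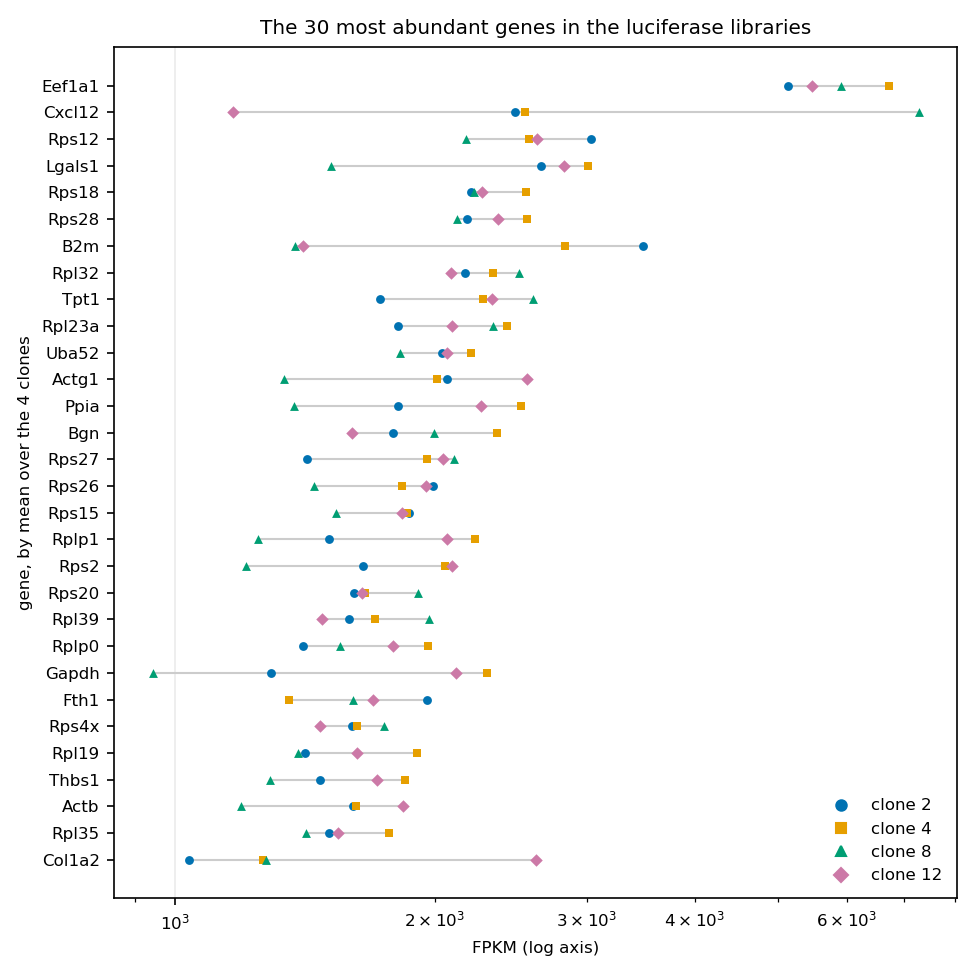
The 30 most abundant genes, ordered by mean, with FPKM on a log axis and 1 symbol per clone. Most ribosomal protein genes have their 4 symbols close together, while Cxcl12 spreads from 1168 FPKM in clone 12 to 7270 FPKM in clone 8.

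The cells carried stromal markers, but the set of surface markers differed from clone to clone. In bulk RNA, fewer cells of a type and less RNA per cell cannot be told apart, here or below. Of 17 surface markers of stromal progenitors 11 reached 1 FPKM in all 4 libraries, against 44.0% of all 23501 genes. Of the 14 with a mean of at least 1 FPKM, 7 were variable, against 7.43% of all 11253 such genes. Both differences rest on few genes and were not tested. Cd9, a tetraspanin, and Itgb1, the shared beta subunit of many integrins, were the abundant even markers, at 273, 298, 300.8 and 314 FPKM and 284, 279.9, 247 and 299 FPKM. Both met the rule for stable genes. Pdgfrb, a receptor of platelet-derived growth factor found on perivascular cells, was at 70.97, 109, 82.5 and 84.4 FPKM.

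Other defining markers were uneven. Ly6a, the stem cell antigen Sca-1, was at 126, 252, 9.59 and 104 FPKM, 26.3-fold lower in clone 8 than in clone 4. Pdgfra, the sister receptor of Pdgfrb used to sort marrow stroma, was instead highest in clone 8 and lowest in clone 12, with 69.7, 48.6, 149 and 27.7 FPKM. Vcam1, an adhesion molecule of the stromal niche, was highest in clone 8, at 14.3, 24.8, 170.1 and 32.4 FPKM. Thy1, a surface glycoprotein, reached 1 FPKM in clone 12 alone, at 0.672, 0.0916, 0.597 and 21.9 FPKM, and Alcam, another adhesion molecule, was also highest there, at 0.522, 2.12, 0.157 and 16.2 FPKM. Cd44, the hyaluronan receptor, was also highest in clone 12, at 35.8, 33.4, 16.7 and 71.4 FPKM. Eng, endoglin, and Nt5e, the ecto-nucleotidase CD73, which are common sorting markers for such cells, had means of only 0.729 FPKM and 0.7905 FPKM.

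Factors by which marrow stroma supports blood cells were high, and several shared an order over clones. Kitl, stem cell factor, was at 178, 51.9, 182 and 17.1 FPKM, Angpt1, angiopoietin 1, at 56.4, 24.4, 159 and 5.73 FPKM, and Ebf1, a transcription factor of marrow stroma, at 71.6, 27.3, 128 and 17.9 FPKM. All 3 were highest in clone 8 and lowest in clone 12, as was Cxcl12. Of the 9 niche factors with a mean of at least 1 FPKM, 6 were highest in clone 8 and 5 were lowest in clone 12, where clone 8 was highest in 27.4% and clone 12 lowest in 26.6% of all 11253 genes. Csf1, the growth factor of macrophages, did not follow, at 118, 129, 189 and 202 FPKM. Spp1, the matrix protein osteopontin, was even, at 1181, 1523, 1549 and 1465 FPKM. Lepr, the leptin receptor that marks perivascular stroma in adult marrow, was near the floor, at 0.574, 0.105, 0.113 and 1.39 FPKM, and Il7, the lymphoid growth factor, had a mean of 0.775 FPKM.

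The fibroblast programme was strong in every clone. The type I collagen genes Col1a1 and Col1a2 were at 831, 1147, 1158 and 2401 FPKM and 1037, 1265, 1276 and 2623 FPKM, highest in clone 12. Col3a1, type III collagen, was at 179.7, 278, 756 and 467 FPKM, highest in clone 8, and Col6a1, of the beaded filament collagen VI, at 1167, 709, 1318 and 622 FPKM, lowest in clone 12. Fn1, fibronectin, was at 1151, 660.2, 707 and 1707 FPKM. Postn, periostin, was highest in clone 12 and 20.4-fold lower in clone 8, with 129, 63.1, 25.8 and 525 FPKM. S100a4, the calcium-binding protein also called FSP1, was 10.2-fold higher in clone 4 than in clone 2, with 63.1, 645, 188 and 328 FPKM. The small proteoglycan genes Dcn and Lum, abundant in many tissue fibroblasts, had means of only 0.431 FPKM and 0.193 FPKM.

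Contractile genes were high as well. Acta2, smooth muscle actin, was at 1436, 1012, 799 and 1615 FPKM, Tagln, transgelin, at 493, 421, 376 and 516 FPKM, and Myl9, a myosin light chain, at 706, 424, 454 and 657 FPKM. Cald1, caldesmon, was stable. Wider differences were seen for Actg2, enteric smooth muscle actin, at 305, 58.2, 103 and 559.98 FPKM, and Cnn1, calponin 1, at 47.7, 36.8, 26.8 and 165 FPKM, both variable and highest in clone 12. Of the 11 genes of this list with a mean of at least 1 FPKM, 7 were highest in clone 12, against 19.3% of all genes. Myh11, the myosin heavy chain of mature smooth muscle, Rgs5 and Cspg4, which mark pericytes, and Des, desmin, stayed below 1 FPKM in all 4 libraries.

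Genes of the 3 skeletal lineages were expressed to unequal extent, those of cartilage least. Of 18 bone genes 3 stayed below 1 FPKM in all 4 libraries, of 17 fat genes 1, and of 18 cartilage genes 11. Of all 23501 genes 11663 did. The cartilage count differs from that share by few genes, which was not tested. Runx2, the transcription factor that opens the bone lineage, was even over the clones at 28.3, 20.6, 26.02 and 25.2 FPKM. Genes further along that lineage were higher in clones 2 and 12. Sp7, osterix, was at 12.5, 0.722, 3.27 and 16.4 FPKM, Alpl, the alkaline phosphatase of mineralising cells, at 69.5, 19.6, 57.05 and 125 FPKM, and Ibsp, bone sialoprotein, at 25.6, 0.281, 0.105 and 13.8 FPKM. Dlx5, a homeobox gene of osteoblasts, was at 7.26, 2.01, 3.84 and 9.904 FPKM, and Bglap, osteocalcin, reached 1 FPKM in clone 2 only, at 3.15, 0, 0.251 and 0.523 FPKM. Clones 2 and 12 were the highest pair for 8 of the 13 bone genes with a mean of at least 1 FPKM, against 16.9% of all 11253 genes. The osteocyte genes Dmp1 (0.485 FPKM) and Mepe (0.00348 FPKM) were below 1 FPKM, and Sost was listed at 0 in all 4.

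Cartilage genes were expressed in part. Sox9, the transcription factor of cartilage named in the series title, was present in every clone, at 6.55, 8.13, 10.4 and 6.68 FPKM. Matrix genes of mature cartilage were near the floor: Acan, aggrecan, had a mean of 0.0172 FPKM, Matn1 was listed at 0, and Hapln1, the link protein, had a mean of 0.0032004 FPKM. Col2a1, the main cartilage collagen, was expressed in clones 2 and 12, at 15.7, 0.503, 0.182 and 35.2 FPKM. Col11a1, its fibril partner that bone and fibroblast cultures also make, was at 5.09, 5.56, 9.47 and 49.98 FPKM, highest in clone 12. Of 18 cartilage genes 5 reached 1 FPKM in all 4 libraries and 11 in none, against 10337 and 11663 of all 23501 genes.

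Among the 3 lineages the share of variable genes was highest for fat (64.3%, against 53.8% for bone and 42.9% for cartilage), a difference of few genes that was not tested. Over all genes 7.43% were variable. Pparg, the nuclear receptor that drives fat cell formation, was at 54.02, 30.96, 54.1 and 19.5 FPKM, and Cebpa, its partner, at 38.3, 24.5, 71.96 and 7.22 FPKM. Lpl, lipoprotein lipase, was at 389, 312, 1171 and 12.7 FPKM, 92.3-fold higher in clone 8 than in clone 12. Fabp4, the fatty acid binding protein of fat cells, was at 37.1, 265, 372 and 30.6 FPKM. Adipoq, the fat cell hormone adiponectin, was at 25.5, 0.881, 111 and 0.937 FPKM (chromosome 16, 23146609 to 23158041), high in clone 8, present in clone 2 and under 1 FPKM in clones 4 and 12. Plin1, the lipid droplet coat of mature fat cells, was low, at 3.73, 0.0283, 6.44 and 0.0609 FPKM, and the hormones Lep and Retn were at 0 and at a mean of 0.666 FPKM. Of 14 fat genes with a mean of at least 1 FPKM, 9 were variable, 9 were highest in clone 8 and 8 were lowest in clone 12, against the shares of 27.4% and 26.6% over all genes. The summed FPKM of the list was 737, 812, 2001 and 159 FPKM.

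**Figure D2:**
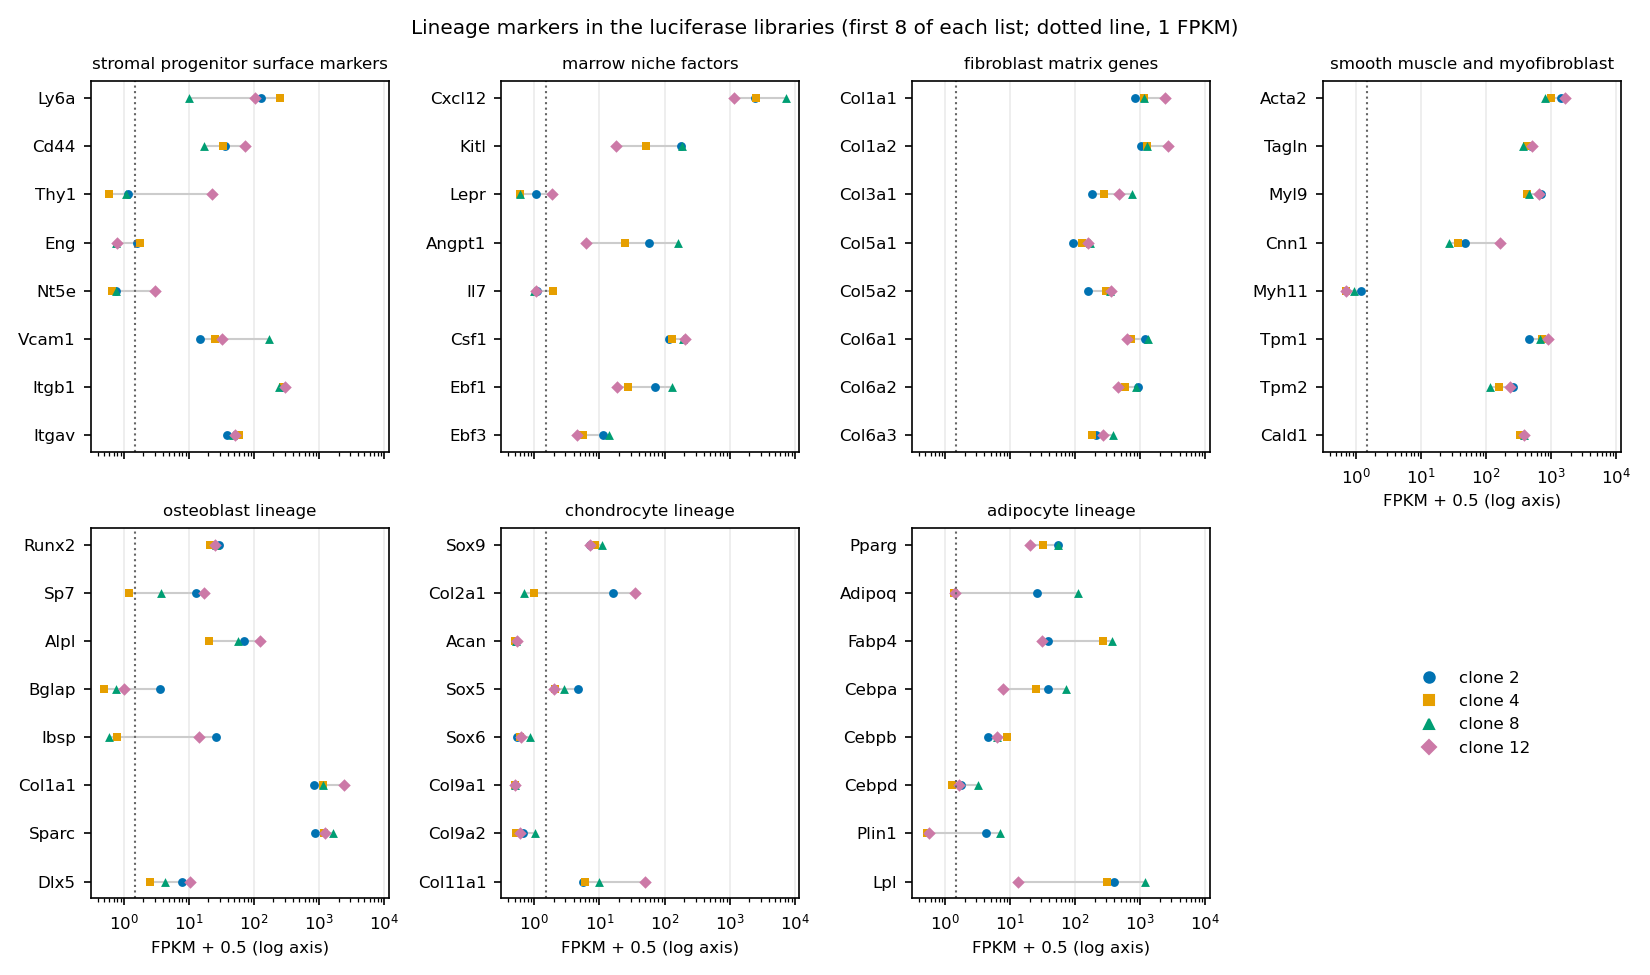
The first 8 genes of each lineage list, with FPKM plus 0.5 on a log axis, 1 symbol per clone and a dotted line at 1 FPKM. Matrix genes, and contractile genes other than Myh11, lie far to the right of the line in all clones, while Adipoq runs from 0.881 FPKM in clone 4 to 111 FPKM in clone 8 and Ibsp from 0.105 in clone 8 to 25.6 in clone 2.

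Most markers of other cells of the marrow and body stayed below 1 FPKM in every library. Of 11 leukocyte and lymphoid markers, which include Ptprc, the pan-leukocyte antigen CD45, none exceeded 0.222 FPKM in any library, and their summed FPKM was 0.436, 0.162, 0.249 and 0.543 FPKM. Of 11 endothelial markers none exceeded 0.767 FPKM, and Cdh5, the cadherin of vessel walls, was listed at 0 in all 4. Of 13 myeloid markers 2 reached 1 FPKM anywhere, Cd14, the co-receptor for bacterial lipopolysaccharide, at 1.35, 2.69, 0.902 and 1.59 FPKM, and Lyz2, lysozyme, at 1.4004, 0.0542, 1.45 and 0.409 FPKM. Adgre1, which encodes the macrophage antigen F4/80, was listed at 0 as well. Pou5f1 and Zfp42, genes of pluripotent cells, were listed at 0 in all 4, while Nanog, another, had a mean of 0.932 FPKM. Of the 9 pluripotent and germ cell genes 1 reached 1 FPKM in some libraries, and the highest value was 1.36 FPKM.

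Of 104 markers of other cell types in the files, 3 reached 1 FPKM in all 4 libraries (2.88%, against 44.0% of all genes) and 86 in none. These 3 were Krt19, a keratin, at 8.04, 28.7, 1.39 and 5.19 FPKM, Ctsk, the collagenase cathepsin K, at 13.3, 1.13, 67.5 and 12.4 FPKM, and Nfatc1, a calcium-regulated transcription factor, at 7.51, 10.4, 5.69 and 11.5 FPKM. Of the 7 other osteoclast genes, 6 stayed below 1 FPKM in all 4 libraries, among them Acp5, the acid phosphatase of osteoclasts, with a mean of 0.156 FPKM, and Calcr, the calcitonin receptor, with one of 0.00475 FPKM. The gelatinase gene Mmp9 was at 0.465, 0.537, 1.61 and 1.31 FPKM. Cd34, a surface antigen of blood progenitors and some stroma, was expressed in clone 12, at 0.502, 0.395, 0.507 and 11.7 FPKM, and Kit, the receptor of stem cell factor, mainly in clone 2, at 4.71, 0.528, 1.804 and 0.0665 FPKM. S100b, a calcium-binding protein known from glia, was highest in clone 8, at 4.58, 0.633, 15.4 and 1.88 FPKM, while Sox10, the glial transcription factor, was listed at 0. Tubb3 and Mbp, on the same neural list, had means of 4.02 FPKM and 1.35 FPKM. Itga2b and Epor of the erythroid and megakaryocyte list had means of 2.12 FPKM and 1.12 FPKM. Acta1 of the skeletal muscle list had one of 2.02 FPKM, and Mecom of the blood progenitor list one of 1.47 FPKM.

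Of the 295 receptor genes on 11 lists, 158 reached 1 FPKM in all 4 libraries (53.6%, against 44.0% of all genes) and 92 in none. Of the 189 with a mean of at least 1 FPKM, 51 were variable (27.0%, against 7.43% of all genes) and 10 were stable (5.29%, against 15.0%). The receptor tyrosine kinases, which take up growth factor signals, were led by Pdgfrb, Pdgfra and Axl, the receptor of Gas6, at 70.3 ± 26.1 FPKM. Next came Ryk, a Wnt-binding receptor, at 53.3 ± 3.72 FPKM, and Ddr2, a collagen receptor, at 50.3 ± 8.55 FPKM. The ranges of Ryk and Ddr2 over the clones lay below that of Pdgfrb and overlapped with those of Pdgfra, Axl and each other. Fgfr1, a fibroblast growth factor receptor, was even at 38.7, 30.4, 43.8 and 36.1 FPKM, whereas Fgfr2 was variable, at 37.5, 15.9, 68.2 and 23.1 FPKM. Ryk was the 1 stable gene of 28 in that list (3.57%, against 15.0% of all genes).

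TGF-beta and BMP receptors, which steer bone and cartilage formation, were highest in clone 8. This held for 9 of 10 with a mean of at least 1 FPKM, against 27.4% of all genes. Tgfbr3, the co-receptor betaglycan, was the most abundant, at 62.6, 59.2, 154 and 27.6 FPKM. Bmpr1a, a type I BMP receptor, was at 30.2, 24.2, 42.4 and 32.2 FPKM, and Tgfbr1, the type I TGF-beta receptor, at 12.1, 8.49, 19.1 and 8.85 FPKM. The exception was Tgfbr2, the type II receptor, highest in clone 12 at 23.4, 22.3, 20.5 and 31.7 FPKM. Acvrl1, the type I receptor ALK1, reached 1 FPKM in clone 8 only, at 0.535, 0.466, 6.598 and 0.244 FPKM. Clone 8 also had the lowest depth, though close to that of clone 12 (7.14 and 7.19 gigabases). It had the smallest share of FPKM in small RNA entries (2.19%, against 4.18 to 5.33% in the others). The part of either in these orders was not tested. After rescaling each library by its median ratio, the same number, 9 of 10, had clone 8 highest. That rescaling moved no library by more than 0.049 on the log2 scale, so it addresses neither.

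Of 14 Wnt receptor genes with a mean of at least 1 FPKM, 5 were variable (35.7%, against 7.43% of all genes). Lgr5, a receptor for R-spondins known as a stem cell marker in gut, was at 31.5, 64.95, 4.799 and 2.87 FPKM (chromosome 10, 114887370 to 115024836), 22.7-fold higher in clone 4 than in clone 12, while its relative Lgr4 was even at 13.5, 13.2, 11.8 and 8.404 FPKM. The co-receptor Lrp6 was at 29.7, 23.3, 48.3 and 31.9 FPKM. Fzd1, a Wnt receptor, was 4.87-fold higher in clone 8 than in clone 4, at 16.9, 11.5, 56.1 and 15.9 FPKM, and Fzd7, another, was at 14.2, 14.4, 14.2 and 11.2 FPKM. For Hedgehog, Smo, the signal transducer, was at 62.03, 49.9, 75.1 and 51.6 FPKM and Gas1, a co-receptor, at 49.05, 31.5, 54.3 and 70.7 FPKM. Ptch1, the receptor that is also a target of the pathway, was highest in clone 12, at 5.55, 5.96, 4.44 and 19.8 FPKM. Notch2 led the Notch receptors at 12.1, 13.8, 22.1 and 20.4 FPKM, and Notch3, known from pericytes, was variable at 1.81, 6.03, 11.6 and 1.61 FPKM.

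Of 21 cytokine and interferon receptors with a mean of at least 1 FPKM, 5 were variable (23.8%, against 7.43% of all genes). Stable was 1 (4.76%, against 15.0%). Il6st, the shared signal chain gp130, was at 64.8, 68.97, 77.4 and 82.6 FPKM, Ifngr1, a chain of the interferon gamma receptor, at 123, 60.4, 86.999 and 48.3 FPKM, and Ifnar1 and Ifnar2, the interferon alpha and beta receptor, at 12.8, 11.7, 18.005 and 12.002 FPKM and 36.1, 30.1, 37.4 and 29.2 FPKM. Ghr, the growth hormone receptor, was variable, at 32.1, 30.1, 63.8 and 14.2 FPKM. In the TNF receptor family Tnfrsf12a, the receptor of TWEAK, was at 82.4, 106, 36.6 and 111 FPKM, Tnfrsf1a, the main TNF receptor, at 81.2, 69.9, 90.6 and 64.6 FPKM, and Ltbr, the lymphotoxin beta receptor, was stable at 52.5, 47.8, 53.6 and 43.8 FPKM. Tnfrsf11b, osteoprotegerin, a secreted decoy that blocks osteoclast formation, was 30.3-fold higher in clone 2 than in clone 8, at 61.5, 17.9, 2.03 and 42.2 FPKM.

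Of 59 chemokine and other G protein-coupled receptors 31 stayed below 1 FPKM in every library, near the share of all genes (11663 of 23501). Those expressed were led by S1pr1, a receptor of sphingosine 1-phosphate, at 34.7, 16.9, 75.97 and 25.9 FPKM, F2r, the thrombin receptor, at 44.8, 45.7, 31.1 and 31.3 FPKM, and Gpr176, a receptor with little known biology, at 38.5, 45.7, 33.9 and 31.98 FPKM. Their ranges overlapped. Pth1r, the receptor of parathyroid hormone on bone cells, was at 4.56, 0.866, 7.64 and 2.35 FPKM, and Ednra, an endothelin receptor, at 11.1, 0.171, 5.92 and 2.32 FPKM. Among integrins, Itgb5 was at 85.8 ± 17.2 FPKM, Itga5, the fibronectin receptor chain, at 64.4 ± 15.4 FPKM, and Itgav at 49.1 ± 8.41 FPKM. The collagen receptor chains Itga11 and Itga1 were variable and ran in different orders, at 13.2, 38.6, 31.6 and 83.8 FPKM and 12.6, 1.26, 26.2 and 5.82 FPKM. Sdc4, the heparan sulfate proteoglycan syndecan 4, was among the 20 most stable abundant genes, at 70.8, 66.9, 67.9 and 66.7 FPKM.

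Of the nuclear receptors, Thra, for thyroid hormone, was at 50.3, 48.3, 97.5 and 44.7 FPKM, Rarg, for retinoic acid, at 25.1, 28.1, 17.6 and 42.4 FPKM, and Nr3c1, the glucocorticoid receptor, at 16.8, 19.6, 28.4 and 15.2 FPKM. This list held 4 of the 10 stable receptors, 18.2% of its 22 with a mean of at least 1 FPKM and near the 15.0% of all genes. They were Rxrb, Ppard, Nr1h2 and Nr2f2, with means of 17.5 FPKM, 11.9 FPKM, 11.1 FPKM and 7.82 FPKM. Esr1, the oestrogen receptor, had a mean of 2.37 FPKM. Of the guidance receptors, Plxnb2, a semaphorin receptor, led at 51.4, 51.96, 59.3 and 66.9 FPKM, and Nrp1, a co-receptor for semaphorins and VEGF, was variable at 22.9, 42.2, 77.5 and 17.6 FPKM, highest in clone 8.

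Receptors for foreign nucleic acid and bacterial products were highest in clone 2 for 7 of 12 with a mean of at least 1 FPKM, against 28.3% of all genes. Ifi204, a DNA sensor of a family with close paralogs, was at 145, 73.99, 38.6 and 41.5 FPKM, and Zbp1, which senses left-handed nucleic acid and can trigger cell death, at 38.2, 14.1, 0.808 and 5.68 FPKM. The toll-like receptors for bacterial products Tlr2 and Tlr4 were at 6.699, 8.04, 9.04 and 6.39 FPKM and 8.28, 8.43, 8.698 and 4.72 FPKM, the latter lowest in clone 12.

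Secreted factors were more uneven than receptors by count. Of 427 genes on 11 lists, 218 reached 1 FPKM in all 4 libraries (51.1%, against 44.0% of all genes) and 139 in none. Of the 271 with a mean of at least 1 FPKM, 104 were variable (38.4%, against 7.43% of all genes) and 11 stable (4.06%, against 15.0%). The difference from receptors (27.0% variable) was not tested. Abundant matrix proteins besides those named above were Sparc, osteonectin, at 862, 1176, 1641 and 1219.5 FPKM, and Mgp, an inhibitor of calcification, at 372, 1082, 452 and 753 FPKM. Thbs2, thrombospondin 2, was 14.6-fold higher in clone 4 than in clone 8, at 306, 780.3, 53.5 and 289 FPKM, although its relative Thbs1 kept within 1.44-fold. Tnc, tenascin C, was at 195.03, 84.5, 424 and 116 FPKM, highest in clone 8. Some matrix processing genes were more even than Thbs2 and Tnc. Lox, which cross-links collagen, was at 683, 1025, 685 and 746 FPKM, and Pcolce, which helps cut procollagen, at 410.2, 669, 448 and 615 FPKM. Mmp14, a membrane collagenase, was stable at 214, 210.1, 253 and 249.6 FPKM. Of 42 secreted proteases with a mean of at least 1 FPKM, 7 were variable (16.7%, against 7.43% of all genes) and 4 stable (9.52%, against 15.0%).

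Among growth factors Gas6, the ligand of the Axl family, had the highest mean and a 19.9-fold span, at 234, 63.5, 759 and 38.1 FPKM (chromosome 8, 13465374 to 13494535). Clone 8 was highest and clone 12 lowest, as for Cxcl12, Kitl and Angpt1. Ptn, pleiotrophin, was also highest in clone 8, at 44.8, 73.3, 248 and 78.9 FPKM. Fgf7, keratinocyte growth factor, was at 230.4, 104, 131 and 136 FPKM, Vegfa, the vessel growth factor, at 49.6, 63.6, 39.95 and 38.9 FPKM, and Hgf, hepatocyte growth factor, at 30.9, 15.7, 18.8 and 9.82 FPKM. Ccn2, connective tissue growth factor, was instead lowest in clone 8, at 184, 106, 24.5 and 106 FPKM. Among the IGF binding proteins Igfbp4 was 15.8-fold higher in clone 8 than in clone 2, at 39.5, 45.8, 624 and 60.2 FPKM, and Igfbp7 was at 259.5, 564, 304 and 184 FPKM.

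TGF-beta family ligands and their binders were variable in 12 of 25 cases (48.0%, against 7.43% of all genes). Fstl1, a follistatin-like binder, led at 456, 291, 602 and 297 FPKM. Bmp4 was at 23.1, 33.7, 18.9 and 75.8 FPKM, Tgfb3 at 28.4, 27.6, 23.6 and 72.3 FPKM and Tgfb2 at 26.2, 8.44, 11.5 and 25.9 FPKM, with clone 12 highest for Bmp4 and Tgfb3. Bmp2, by contrast, was seen in clone 2 alone, at 4.501, 0.05603, 0.0456 and 0.106 FPKM, and Bmp5 was highest in clone 8 and near 0 in clone 2, at 0.00888, 5.73, 35.4 and 1.48 FPKM. The BMP antagonists were split between clones. Chrdl1, chordin-like 1, was a clone 8 gene at 3.88, 5.16, 72.9 and 2.15 FPKM, and Grem1, gremlin, a clone 4 gene at 4.598, 33.7, 7.004 and 5.08 FPKM.

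Of 32 Wnt ligands and modulators, the secreted antagonist Sfrp2 was the most abundant, at 418, 700.3, 747 and 1024 FPKM. Sfrp1 was highest in clone 8, at 38.8, 43.9, 242 and 38.9 FPKM, Dkk3 in clones 2 and 12, at 88.5, 8.53, 23.01 and 127 FPKM, and the R-spondin gene Rspo2 in clone 2, at 177, 78.999, 51.3 and 46.2 FPKM. The ligands themselves were low. Wnt5a was at 6.299, 6.18, 12.4 and 10.3 FPKM, Wnt10b at 3.14, 8.43, 2.17 and 9.01 FPKM, and Wnt16 was seen mainly in clone 2, at 8.44, 0.192, 0.0347 and 1.205 FPKM. Wnt1 and Wnt7b had means of 0.00292 FPKM and 0.0105 FPKM, and Wnt3a was listed at 0.

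Inflammatory chemokines were present besides Cxcl12. Ccl2 and Ccl7, which draw monocytes, were at 89.4, 185, 44.9 and 41.2 FPKM and 105, 118, 84.1 and 44.5 FPKM. Ccl5, which draws T cells, was at 77.2, 40.01, 8.43 and 58.96 FPKM. Cxcl10 and Cxcl9, which share the receptor CXCR3, were at 115, 19.2, 2.53 and 16.3 FPKM and 42.4, 0.5404, 0.3201 and 0.507 FPKM, both highest in clone 2. Of the cytokines, Mif, macrophage migration inhibitory factor, was at 326, 711, 126 and 625 FPKM, and Il1rn, the interleukin 1 receptor antagonist, at 54.7, 90.3, 28.8 and 59.7 FPKM. Hp, haptoglobin, was 23.8-fold higher in clone 2 than in clone 12, at 402, 128, 200.3 and 16.9 FPKM, and Ptx3, a pentraxin, was highest in clone 8, at 47.4, 16.4, 185 and 70.5 FPKM. Il6 was at 1.99, 0.655, 1.23 and 0.735 FPKM, Tnf and Il1b were listed at 0 in all 4, and Ifnb1 had a mean of 0.172 FPKM. Among protease inhibitors Serpinf1, the factor PEDF, was stable at 512, 429.99, 441 and 496 FPKM, while Timp3 was highest in clone 12, at 116, 59.6, 11.03 and 358 FPKM, and F3, tissue factor, in clone 8, at 58.1, 120.3, 417 and 73.9 FPKM.

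Of 26 complement genes 10 reached 1 FPKM in all 4 libraries and 9 in none, against 10337 and 11663 of all 23501 genes. C1ra and C1s1, proteases that open the classical pathway, were at 83.5, 56.4, 137 and 49.4 FPKM and 43.01, 36.4, 92.9 and 31.5 FPKM. C3, the central component, was at 17.7, 5.83, 16.1 and 5.61 FPKM, and Clu, the inhibitor clusterin, was 26.8-fold higher in clone 8 than in clone 12, at 14.6, 13.3, 127 and 4.73 FPKM. Late components such as C6 and C9 had means of 0.00419 FPKM and 0.00777 FPKM.

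Set side by side, several secreted signals had receptor messages below 1 FPKM in the same cells, and others had higher ones. These pairs were chosen after the values were seen. Cxcl12 had a mean of 3364 FPKM, and its receptors Cxcr4 and Ackr3 had means of 0.0196 FPKM and 0.152 FPKM. For Csf1 (159.6 FPKM) the receptor Csf1r had a mean of 0.205 FPKM, and for Angpt1 (61.4 FPKM) the receptor Tek one of 0.0985 FPKM. Ccl2 (90.1 FPKM) stood against Ccr2 at 0.00119 FPKM, and Vegfa (48.02 FPKM) against Kdr at 0.0836 FPKM but Nrp1 at 40.1 FPKM. Message for both sides was present for Gas6 (274 FPKM) with Axl (70.3 FPKM), Tyro3 (6.24 FPKM) and Mertk (3.31 FPKM). The same was so for Hgf with Met, at 18.8 FPKM and 8.55 FPKM, for Pdgfa and Pdgfc with their receptors, at 11.8 FPKM and 14.4 FPKM, and for Rspo2 with Lgr4 and Lgr5. Message levels say nothing of protein at the cell surface.

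**Figure D3:**
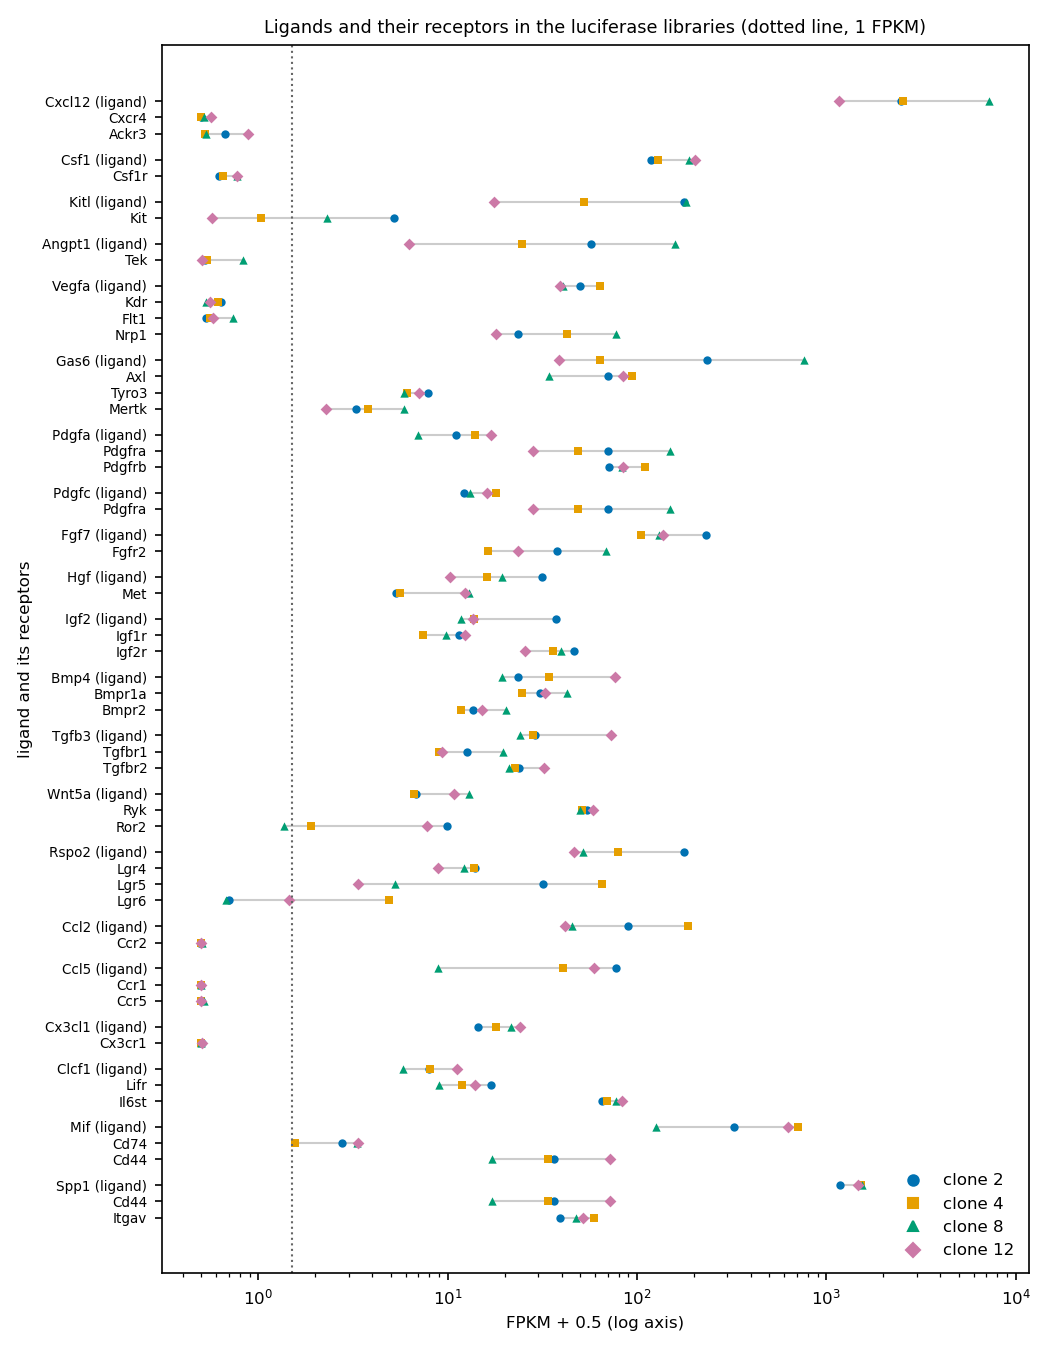
Ligands with their receptors below them, with FPKM plus 0.5 on a log axis, 1 symbol per clone and a dotted line at 1 FPKM. Cxcr4, Csf1r, Kdr and Ccr2 lie left of the line in all 4 clones while their ligands lie right of it, and Axl, Pdgfra and Igf2r lie to the right.

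Transcription factors of limb and trunk mesenchyme were expressed in part. Prrx1, which marks limb and stromal mesenchyme, was at 89.3, 100.3, 103 and 116 FPKM, Snai2 at 108, 60.04, 191 and 56.3 FPKM and Twist1, a repressor of bone maturation, at 13.2, 13.2, 10.1 and 19.2 FPKM. Prrx2 was 6.05-fold higher in clone 12 than in clone 8, at 20.3, 17.1, 16.001 and 96.7 FPKM. Tbx18, known from pericytes and somites, was at 36.5, 15.8, 60.7 and 13.2 FPKM, Tbx15 at 32.2, 12.8, 13.1 and 61.6 FPKM and Osr1, a factor of early mesenchyme, at 23.2, 10.03, 4.24 and 21.8 FPKM. Tbx5 and Tbx4, which mark fore- and hindlimb, had means of 0.0128 FPKM and 0.0123 FPKM, while Pitx1, a hindlimb gene, was at 0.432, 9.499, 3.17 and 8.28 FPKM.

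The Hox genes, which record position along the body, were read from the A and C clusters only. Of 39 Hox genes 9 reached 1 FPKM in all 4 libraries and 20 in none, against 10337 and 11663 of all 23501 genes. Hoxa10 was at 39.3, 21.4, 20.5 and 29.3 FPKM, Hoxc10 at 6.31, 28.3, 17.2 and 35.4 FPKM, Hoxa9 at 11.5, 6.46, 6.59 and 7.07 FPKM and Hoxc13 at 5.77, 14.7, 19.9 and 4.81 FPKM. Every gene of the B and D clusters on the list was near or at 0, with Hoxb1 (0.03901 FPKM) and Hoxd8 (0.0336 FPKM) the highest means. The clones fell into pairs at some positions. Hoxa11 was at 9.96, 0.09005, 0.0122 and 7.72 FPKM and Hoxa7 at 6.58, 0.993, 0.5096 and 1.76 FPKM, higher in clones 2 and 12, and Hoxc12 at 2.83, 11.95, 13.1 and 0.968 FPKM, higher in clones 4 and 8. Clones 2 and 12 were the highest pair for 11 of 17 Hox genes with a mean of at least 1 FPKM, against 16.9% of all genes.

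Interferon-stimulated genes varied together. Of 29 with a mean of at least 1 FPKM, 23 were variable (79.3%, against 7.43% of all genes). Clone 2 was the highest for all 29, against 28.3% of all genes, and clone 8 the lowest for 27, against 36.7%. Isg15, a ubiquitin-like protein, was at 660.3, 225, 51.2 and 197 FPKM (chromosome 4, 155573533 to 155574927), and Usp18, which removes it from its targets, at 164, 44.4, 12.6 and 42.3 FPKM. Bst2, the virus tether tetherin, was at 757, 377, 54.5 and 238 FPKM, and Ifit1 and Ifit3, which bind foreign RNA, were at 194, 38.6, 16.2 and 40.5 FPKM and 307, 61.1, 12.6 and 33.7 FPKM. The signal carriers Stat2 and Irf7 were at 67.9, 32.01, 11.5 and 21.1 FPKM and 117, 41.9, 12.9 and 19.9 FPKM. In each of these the order was clone 2 first and clone 8 last, and Ifit3 had a 24.3-fold span. Median deviations of the 29 genes from their own mean over clones were 1.287, 0.231, -1.198 and -0.390 on the log2 scale, where the medians of all genes were 0.045, 0.029, -0.043 and -0.022.

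Clone 2 was also the deepest library and clone 8 the shallowest, and the part of depth in this order was not tested. After the libraries were rescaled by their median ratio, clone 2 was highest for 29 of 29. That rescaling moved no library by more than 0.049 on the log2 scale. It could hardly change this order and does not address depth. Leukocyte markers were at most 0.222 FPKM in any library, clone 2 included. The interferon messages Ifnb1 and Ifna4 were below 1 FPKM in every library and highest in clone 2, at 0.644, 0, 0 and 0.0436 FPKM and 0.9597, 0, 0 and 0 FPKM, and Ifng had a mean of 0.0249 FPKM. Of 13 antigen presentation genes with a mean of at least 1 FPKM clone 2 was highest for 11, against 28.3% of all genes. H2-D1 and H2-K1, class I heavy chains with close paralogs that make their split uncertain, were at 679.7, 460.02, 156 and 225 FPKM and 516, 511, 139 and 136 FPKM. Tap1, which pumps peptides to them, was at 60.1, 27.9, 11.6 and 16.7 FPKM, and Nlrc5, their transcriptional activator, at 19.7, 6.49, 2.08 and 3.35 FPKM. Of the class II genes, Cd74, the invariant chain, was at 2.27, 1.06, 2.84 and 2.85 FPKM, higher in clones 8 and 12, and H2-Aa and Ciita had means of 0.0132 FPKM and 0.0266 FPKM.

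Because these genes varied as a group, the start regions of 5 of them are shown. The reference promoters (RefSeq, build GRCm38.p6) covered 22 of the 30 listed interferon genes, and they were searched over the 250 bases before the start on both strands for 2 copies of GAAA with any 2 bases between them, the core of the interferon-stimulated response element. It was found in 10 of the 22 (45.5%), against 3.46% of 27025 genes with a reference promoter and 3.18% of 8913 such genes with a mean of at least 1 FPKM. A gene with several reference starts counted if any of them held a match. Gbp3 had another start with 0 matches, and its start with matches is shown. A match is a run of letters and does not show binding. Each line gives the 120 bases before the start in the direction of the gene, with matches in capitals, in which overlapping matches run together and a match on the opposite strand holds TTTC in place of GAAA:
Isg15, chr4:156200819-156200938, minus strand: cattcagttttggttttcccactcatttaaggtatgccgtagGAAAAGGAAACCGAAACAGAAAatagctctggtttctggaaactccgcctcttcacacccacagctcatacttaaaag
Ifit1, chr19:34640769-34640888, plus strand: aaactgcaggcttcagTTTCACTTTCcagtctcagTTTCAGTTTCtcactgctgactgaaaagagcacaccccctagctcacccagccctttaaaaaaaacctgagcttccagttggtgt
Oas1a, chr5:120907526-120907645, minus strand: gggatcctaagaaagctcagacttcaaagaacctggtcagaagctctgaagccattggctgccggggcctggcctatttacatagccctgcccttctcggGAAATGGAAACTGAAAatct
Rsad2, chr12:26456453-26456572, minus strand: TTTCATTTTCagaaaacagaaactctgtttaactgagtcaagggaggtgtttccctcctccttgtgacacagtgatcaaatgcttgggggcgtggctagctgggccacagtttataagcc
Gbp3, chr3:142559924-142560043, plus strand: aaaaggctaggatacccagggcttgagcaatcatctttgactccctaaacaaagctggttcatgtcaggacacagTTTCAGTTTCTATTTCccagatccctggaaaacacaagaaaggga

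The matches differed in number and place. Isg15 held 3 overlapping ones, Oas1a, an oligoadenylate synthetase, held 2 close to its start, and Ifit1 held 2 set apart. Levels of these 5 genes had 1 order at the ends. Oas1a was at 52.9, 50.01, 6.52 and 20.5 FPKM, Rsad2, the antiviral enzyme viperin, at 18.6, 6.47, 0.422 and 2.59 FPKM, and Gbp3, a guanylate binding protein, at 55.3, 20.7, 13.7 and 16.6 FPKM, all highest in clone 2 and lowest in clone 8. The reference promoter of Irf7 held no match, and its levels followed the same order.

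Glycolysis divided the clones in another way. Clones 4 and 12 were the highest pair for all 16 glycolysis genes with a mean of at least 1 FPKM, against 19.7% of all genes. Of the 16, 1 was variable by the 4-fold rule (6.25%, near the 7.43% of all genes), and none was stable, against 15.0%. Their median fold between highest and lowest clone was 2.57, against 1.56 over all genes with a mean of at least 1 FPKM. Pgk1, phosphoglycerate kinase, was at 228, 681, 189 and 593 FPKM, Eno1, enolase, at 362, 892, 283 and 771 FPKM, Pkm, pyruvate kinase, at 419, 896, 236 and 666 FPKM, and Ldha, lactate dehydrogenase, at 253, 513, 239 and 466 FPKM. In each the lower of clones 4 and 12 exceeded the higher of clones 2 and 8. Slc16a3, the lactate exporter MCT4, was the variable one, at 0.915, 36.3, 3.74 and 24.6 FPKM (chromosome 11, 120809798 to 120820314). Summed over the list the levels were 3424, 7029, 2688 and 6182 FPKM. For Ldha and Slc16a3, shown as the abundant and the variable example, the letters ACGTG, the core of the hypoxia response element, were searched in the same way. They were found in 8 of 16 glycolysis genes, against 18.5% of all genes with a reference promoter and 25.8% of those with a mean of at least 1 FPKM. Ldha had another reference start with 0 matches, and its start with matches is shown. Capitals mark ACGTG and its reverse complement CACGT:
Ldha, chr7:46845684-46845803, plus strand: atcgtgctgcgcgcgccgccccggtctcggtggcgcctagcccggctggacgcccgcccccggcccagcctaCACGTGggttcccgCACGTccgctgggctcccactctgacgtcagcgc
Slc16a3, chr11:120948947-120949066, plus strand: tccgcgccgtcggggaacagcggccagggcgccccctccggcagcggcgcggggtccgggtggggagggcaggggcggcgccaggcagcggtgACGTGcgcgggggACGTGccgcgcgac

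Rescaling to a fixed sum of FPKM left clones 4 and 12 the highest pair for 15 of the 16, and rescaling by the median ratio for 16. Gapdh and Pgk1 are common reference genes, and they were 2.44-fold and 3.61-fold apart between their extreme clones. None of 17 reference genes was variable and none was stable, against 7.43% and 15.0% of all genes, a difference of few genes that was not tested. Tbp, the TATA-binding protein, was at 13.03, 13.9, 11.6 and 14.8 FPKM, and Hprt, of purine salvage, at 59.5, 63.8, 35.7 and 62.7 FPKM.

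**Figure D4:**
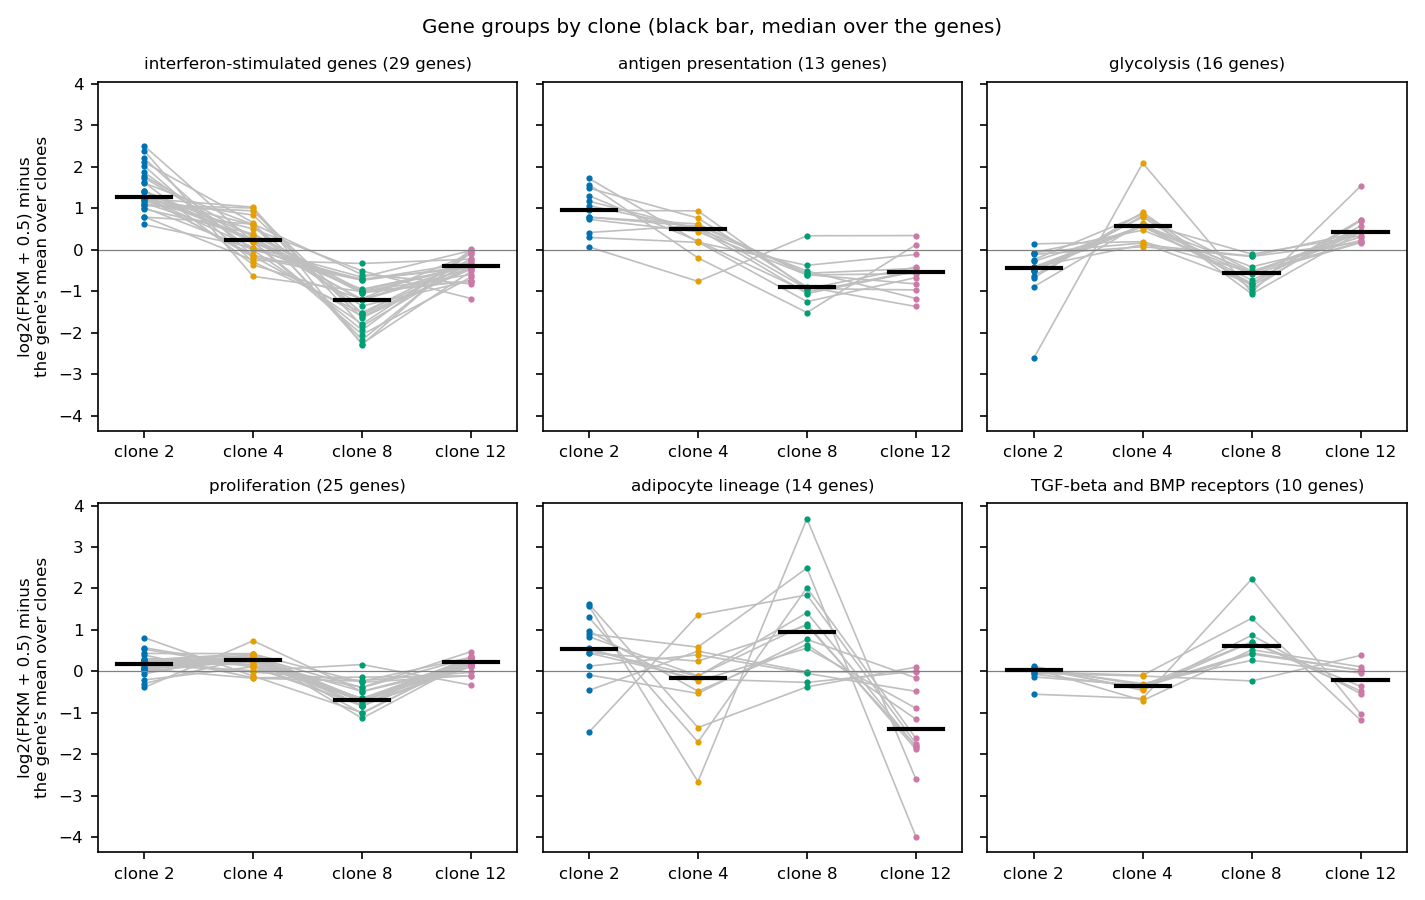
Deviation of each gene from its own mean over the clones, on the log2(FPKM + 0.5) scale, for 6 gene groups, with 1 grey line per gene and a black bar at the median of the genes in each clone. Interferon-stimulated genes run from 1.287 in clone 2 to -1.198 in clone 8, glycolysis genes stand above 0 in clones 4 and 12, and proliferation genes lie below 0 in clone 8 (median -0.680).

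Proliferation genes were expressed in every clone and lowest in clone 8. All 25 reached 1 FPKM in all 4 libraries, and none was variable, against 7.43% of all genes. Clone 8 was lowest for 23, against 36.7% of all genes. Pcna, the sliding clamp of replication, was at 161, 176, 85.95 and 150.5 FPKM, Mki67, the antigen Ki-67, at 27.6, 22.8, 19.7 and 22.6 FPKM, Top2a, a topoisomerase, at 66.4, 80.6, 40.2 and 77.8 FPKM, and Ccnb1, cyclin B1, at 88.1, 46.1, 24.8 and 61.1 FPKM. Clone 8 was lowest for 22 of the 25 after rescaling by the median ratio. The immediate early genes, a class with fast-turning messages, included Fos, the gene that the study adds to these cells. Fos was at 76.2, 41.1, 302 and 43.5 FPKM, highest in clone 8, and Zfp36 and Nr4a1 were variable too, at 56.3, 21.3, 88.7 and 17.3 FPKM and 24.3, 7.05, 43.1 and 6.24 FPKM. Jun was at 41.7, 29.6, 55.5 and 26.9 FPKM and Myc at 36.2, 25.8, 19.8 and 38.02 FPKM.

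Some imprinted genes, which are read from 1 parental copy, were high in a single clone. Meg3 and Rian, noncoding RNAs of the same imprinted domain, were at 0.791, 1.099, 26.4 and 1.28 FPKM and 1.54, 3.31, 40.9 and 3.26 FPKM, high in clone 8, while Dlk1, the protein-coding gene of that domain, was at 2.04, 0.751, 2.44 and 4.92 FPKM. Mest was at 40.9, 21.3, 222 and 73.5 FPKM, again highest in clone 8, and Gnas, a G protein alpha subunit, was stable at 378, 408, 347 and 379.5 FPKM. The Y-linked genes Ddx3y and Eif2s3y were at 23.2, 24.1, 30.3 and 13.997 FPKM and 31.6, 39.5, 30.7 and 20.8 FPKM, and Xist, the RNA that coats an inactive X chromosome, had a highest value of 0.0691 FPKM, so all 4 libraries had the same pattern of these genes.

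Over all 836 variable genes, clone 8 was the clone farthest from its nearest neighbour most often. It stood apart in 328 of them, high in 178 (21.3%) and low in 150 (17.9%). Clone 12 stood apart in 113 on the high side and 93 on the low side, clone 2 in 132 and 58, and clone 4 in 54 and 58. Without clone 8 there were 480 variable genes in place of 836, and without clones 2, 4 or 12 there were 627, 724 or 579. Low genes were called variable more often. Of the 2779 genes with a mean of 1 to 5 FPKM 13.6% were variable, of the 4807 with 10 to 50 FPKM 4.51%, and of the 684 above 100 FPKM 7.46%. The authors' confidence limits within a library were narrow, so that the highest and lowest libraries had limits that did not meet for 793 of the 836 variable genes (94.9%), for 93.3% of all 11253 and for 68.4% of the stable ones.

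The widest range among genes with a mean of at least 10 FPKM was that of Rps27rt, at 35.1, 15.3, 1004 and 0.436 FPKM. It is listed on the same stretch as the near-identical Rps27 (chromosome 3, 90016589 to 90017570), which was at 1421, 1959, 2103 and 2042 FPKM, and how reads were split between these is uncertain. The same holds for Rpl39l and Rps4l, relatives of the ribosomal protein genes Rpl39 and Rps4x, although Rpl39l had a pattern of its own, with 1.65, 130.3, 135 and 128 FPKM (chromosome 16, 10170321 to 10175004). It was low in clone 2 and within 128 to 135 FPKM in the other 3. Other genes of wide range had other roles. Car3, carbonic anhydrase 3, known from muscle and fat, was at 4.22, 0.194, 67.6 and 0.341 FPKM, and Aldh1a2, which makes retinoic acid, at 94.1, 123, 0.816 and 10.6 FPKM. Rarres2, the secreted chemoattractant chemerin, was at 27.8, 4.47, 88.5 and 0.633 FPKM, highest in clone 8 and lowest in clone 12 like Lpl.

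Each clone had its own set of outlying genes, here those of mean 10 FPKM or more with the widest gap to the next clone. In clone 2 Xlr, an X-linked lymphocyte-regulated gene, was at 48.5, 0.0837, 0.273 and 0.0903 FPKM (chromosome X, 51086925 to 51100873), so that it was expressed there and near 0 in the others. C4b, a complement component with the near-identical C4a, was at 36.9, 1.47, 3.36 and 2.98 FPKM, and Esm1, the proteoglycan endocan, at 40.01, 0.531, 5.402 and 2.14 FPKM. Clone 4 was high in Sulf1, an enzyme that trims heparan sulfate, at 1.04, 46.6, 5.904 and 9.46 FPKM. It was low in Lrrc17, a secreted leucine-rich protein, at 17.6, 1.79, 24.03 and 18.3 FPKM, in Itga1 and in Ctsk. Clone 8 was high in Car3 and Chrdl1, and low in Ly6c1, a surface antigen close to Ly6a, at 37.9, 95.4, 2.54 and 44.6 FPKM, and in Dpysl3, a cytoskeletal protein, at 13.1, 17.4, 0.623 and 78.5 FPKM. Clone 12 was high in Itm2a, a membrane protein of cartilage and other mesenchyme, at 23.3, 23.6, 4.39 and 250.4 FPKM, and in Capn6, a calpain without protease activity, at 5.82, 5.67, 0.923 and 45.4 FPKM. It was low in Lpl, in Hp and in Selenop, the secreted selenium carrier, at 327, 308, 516 and 28.7 FPKM.

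**Figure D5:**
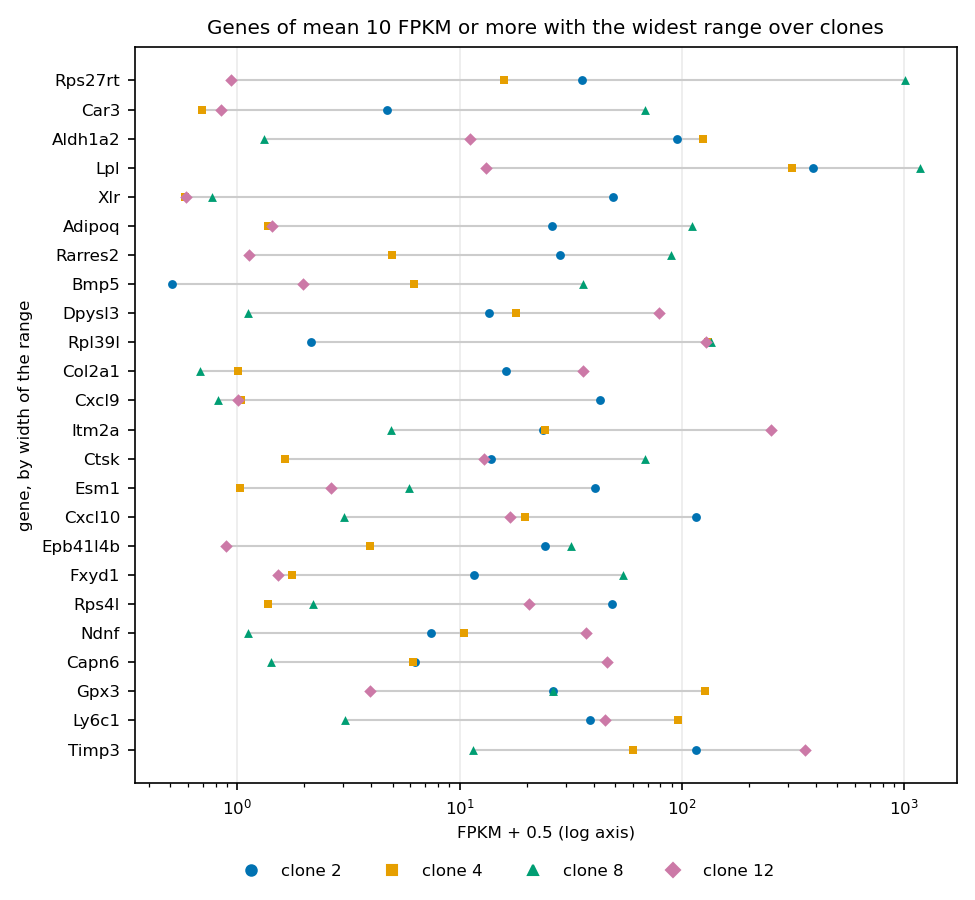
The 24 genes of mean 10 FPKM or more with the widest range over the clones, with FPKM plus 0.5 on a log axis and 1 symbol per clone. Xlr, Cxcl9 and Esm1 have clone 2 far to the right, Car3 and Adipoq have clone 8 there, and Itm2a and Capn6 have clone 12 there.

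The most even abundant genes belonged to splicing, respiration and protein turnover. Srrm2, a splicing scaffold, was at 83.8, 81.3, 79.8 and 80.96 FPKM (chromosome 17, 23940154 to 23961710), and Rnf4, a ubiquitin ligase for SUMO-tagged proteins, at 63.7, 62.7, 61.2 and 60.99 FPKM (chromosome 5, 34679039 to 34696079). Sumo2 itself was at 233, 233, 220.3 and 226 FPKM. Ndufa10, Ndufa5 and Ndufa6, subunits of respiratory complex I, had means of 62.3 FPKM, 91.9 FPKM and 90.2 FPKM, each within 1.09-fold between extreme clones or less. Syncrip and Rbm39, RNA-binding proteins, were at 54.1 ± 1.68 FPKM and 84.5 ± 2.76 FPKM, and Skp1, a scaffold of ubiquitin ligases, at 129 ± 4.22 FPKM. Hmgb1, a chromatin protein, was at 218, 223, 205 and 218 FPKM. The 20 most even genes of mean 50 FPKM or more were chosen for small spread, so their evenness is a description. All 20 met the rule for stable genes in each alternative that was tried, and of the 24 most variable genes 21 to 24 met the rule for variable genes.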

How the data were processed

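RNA from the 4 luciferase cultures was extracted with a column kit and made into polyadenylated TruSeq libraries, per the labels' protocols. The submitters' processing notes name CASAVA 1.8.2, TopHat, Cufflinks and build mm9. The annotation release, the strand setting and the remaining versions: not given in the sources used here. Tables of FPKM and its confidence limits for each RefSeq transcript were deposited, as the file headers show. The coverage in those tables, a signal per base that the authors' program computed, served only to estimate depth. Read counts were not at hand, and counting intervals were left out for that reason.

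Each table had 30769 entries, of which 30227 were named from a RefSeq table and 180 from GENCODE M21, used for names only, and 362 kept their accession. FPKM was summed per symbol. A status other than OK took out 2 genes. Small RNA genes (802 entries) were passed over in the ranking of abundance. Coordinates are mm9, counted from 1. Near-identical and overlapping genes can trade reads.

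The log2 scale has a pseudocount of 0.5, which understates differences of low genes. Tables were read with pandas 2.3.3 and numpy 2.4.6 in Python 3.11.15, plots were drawn with matplotlib 3.10.9, and the calls were tested on simulated data. The libraries, genes and lists were chosen with earlier results of these data known. Named genes are the 30 most abundant, the first 3 and up to 6 further abundant members of each list, the 24 most variable of mean 10 FPKM or more and up to 5 per clone, and the 20 most even of mean 50 FPKM or more, without small RNA genes, pseudogenes and predicted genes. A few genes that this rule names are not reported here. Other genes, the ligand and receptor pairs and the promoter motifs were chosen after values were seen. Alternatives were each clone left out, other pseudocounts, filters and thresholds, 2 rescalings and the most abundant entry per gene.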

Additional observations from a re-analysis of the deposited data

Results flagged for a closer look

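In some named genes 1 clone lay far from the other 3: its gap to the nearest clone took a larger share of the whole range on the log2(FPKM + 0.5) scale than Dixon's gap test allows for 4 values. By chance about 1 group in 20 passes. Of 253 named genes with a mean of at least 1 FPKM, 17 passed (6.72%), and of all 11253 genes 734 (6.52%), of which the clone apart was clone 8 in 358. Some named genes, Xlr, Rpl39l, Cxcl9 and Lrrc17 among them, were chosen for a wide gap between 1 clone and the next. The share among named genes is therefore not independent of this rule and is a description only. Clone 2 was the high one in Bmp2 (0.953), Cxcl9 (0.940), Hoxa9 (0.847) and Xlr (0.936). It was the low one in Rpl39l (0.988). Clone 4 was the low one in Lrrc17 (0.873). Clone 8 was the high one in Acvrl1 (0.853), Igfbp4 (0.848), Meg3 (0.895), Sfrp1 (0.933) and Thra (0.850). It was the low one in Hprt (0.880). Clone 12 was the high one in Cd34 (0.955), Prrx2 (0.869) and Tgfb3 (0.837). It was the low one in Fzd7 (0.939) and Tlr4 (0.917). The values in parentheses are the gap as a share of the range.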

How the results depend on the processing

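No test between clones was made, so every alternative concerns a count or a share. No paired analysis was possible because the 4 libraries form 1 group with 1 library per clone. Leaving out 1 clone gave 480 to 724 variable genes and 2709 to 3868 stable ones, with fewer libraries to differ. The lowest variable and the highest stable count came without clone 8. With thresholds of 3-fold and 1.5-fold there were 1256 variable and 5015 stable genes, and clone 8 stood apart in 508. With a mean of at least 5 FPKM there were 458 variable genes, and clone 8 stood apart in 179. With no filter on low genes 11568 were stable, since genes near 0 in every library then count as even. Rescaling by the median ratio moved each library by at most 0.049 on the log2 scale. The share held by the 100 leading genes and the counts of expressed genes and list members kept within 1.5 times or 1 SD of their value under each alternative run. Alternatives for the orders of clones within lists, for the clone that stands apart and for list counts beyond the expression threshold were chosen after seeing the data. In low genes the sampling depth limits what can be told, and no replicate culture of any clone bounds the error of a single value.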
